A study of Mus musculus with 12 samples.

Results

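The genes described here make bile acids from cholesterol in the liver or govern that synthesis. They are 10 genes: the 5 cytochrome P450 enzymes Cyp7a1, Cyp8b1, Cyp27a1, Cyp7b1 and Cyp39a1, the steroid dehydrogenase Hsd3b7, the conjugating enzymes Slc27a5 and Baat, the bile acid receptor FXR (gene Nr1h4) and its partner in feedback, SHP (gene Nr0b2). Each was found by its symbol in the array annotation, and 13 of the 22626 probe sets carried 1 of these symbols. Among the 12393 genes tested, all 10 were present. Cyp7a1, Cyp7b1 and Baat had 2 probe sets, and the one with the higher mean stood for the gene.

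Female C57BL/6 mice of 8 to 12 weeks gave whole livers, whose RNA was measured on Affymetrix Mouse430A arrays, with 3 arrays in each of 4 groups. The HDAC6 knockout and HDAC9 knockout groups lacked 1 of these histone deacetylases, and the labels give neither the diet of these mice nor how the alleles were made or in which cells they are lost. The wild-type high-fat group ate food in which fat supplied 60% of the energy, which the series' design text places after weaning, and in the food of the wild-type chow group fat supplied 25%. The labels name 3 samples per group without saying in words that each was a separate mouse, so that the spread between them may in part be technical. Values are log2 expression per probe set, so that a difference of 1 is a 2.00-fold change, and a probe set's level is not comparable with that of another.

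As background, the classic pathway of bile acid synthesis begins with Cyp7a1, and Cyp8b1 then decides how much of the product becomes cholic acid. The alternative pathway begins with Cyp27a1 in the mitochondria and continues with Cyp7b1, while Cyp39a1 acts on the brain-derived 24-hydroxycholesterol. Bile acids returning to the liver bind FXR, FXR induces SHP, and SHP represses Cyp7a1 and Cyp8b1. FXR in the ileum also sends the hormone FGF15 to the liver, where it restrains Cyp7a1.

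The arrays were alike in scale, with medians between 5.78 and 5.86 and correlations between arrays of 0.987 to 0.997. Hdac6 measured 6.17, 6.16 and 6.50 in HDAC6 knockout livers, against 7.89, 7.98 and 7.86 in chow livers, and passed the test (limma, log2 fold change -1.63 ± 0.13 SE, adjusted p = 6.79e-05). Hdac9 lay between 4.04 and 4.53 on every array, close to the 25th percentile of gene means (4.389), and no difference was detected between HDAC9 knockout and chow livers (log2 fold change -0.09 ± 0.13 SE, limma adjusted p = 0.938), so the HDAC9 labels could not be checked by it. The hepatocyte marker Alb measured 14.16 to 14.25 throughout, at the top of the scale (highest value 14.248), where a difference may be hard to see. Of the 7 measured hepatocyte genes, 3, 3 and 2 averaged higher than chow in HDAC6 knockout, HDAC9 knockout and high-fat livers. The others averaged lower, and none was called. In whole livers, fewer cells of a type and less RNA per cell cannot be told apart.

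No member passed the threshold of an adjusted p under 0.05 in any comparison with chow. Over all genes, 0.0161% were called between HDAC6 knockout and chow, 0.0968% between HDAC9 knockout and chow and 0.29% between high-fat and chow. The members' means nevertheless lay below chow for 7 of 10 in HDAC6 knockouts, 10 of 10 in HDAC9 knockouts and 9 of 10 on the high-fat diet, where 54.4%, 54% and 52.8% of all genes did so. All 3 comparisons share the chow arrays, so that a high value there lowers the difference in each of them. The median difference of the members was -0.20, -0.24 and -0.22 in that order of groups, against -0.01 over all genes in each comparison. Groups without overlap, meaning here that every array lay below every chow array, were found for Cyp7a1 and Cyp39a1 in HDAC6 knockouts (2 of 10 members, 5.31% of all genes). They were found for Cyp7a1, Cyp27a1 and Cyp39a1 in HDAC9 knockouts (3 of 10, 7.21% of all genes) and for Cyp27a1, Cyp39a1 and Baat on the high-fat diet (3 of 10, 7.71% of all genes). No member lay above chow on every array in any of these comparisons. At an unadjusted p under 0.05, limma gave 2, 3 and 4 members in the same order of groups, against 5.77%, 6.08% and 8.48% of all genes.

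**Figure D1:**
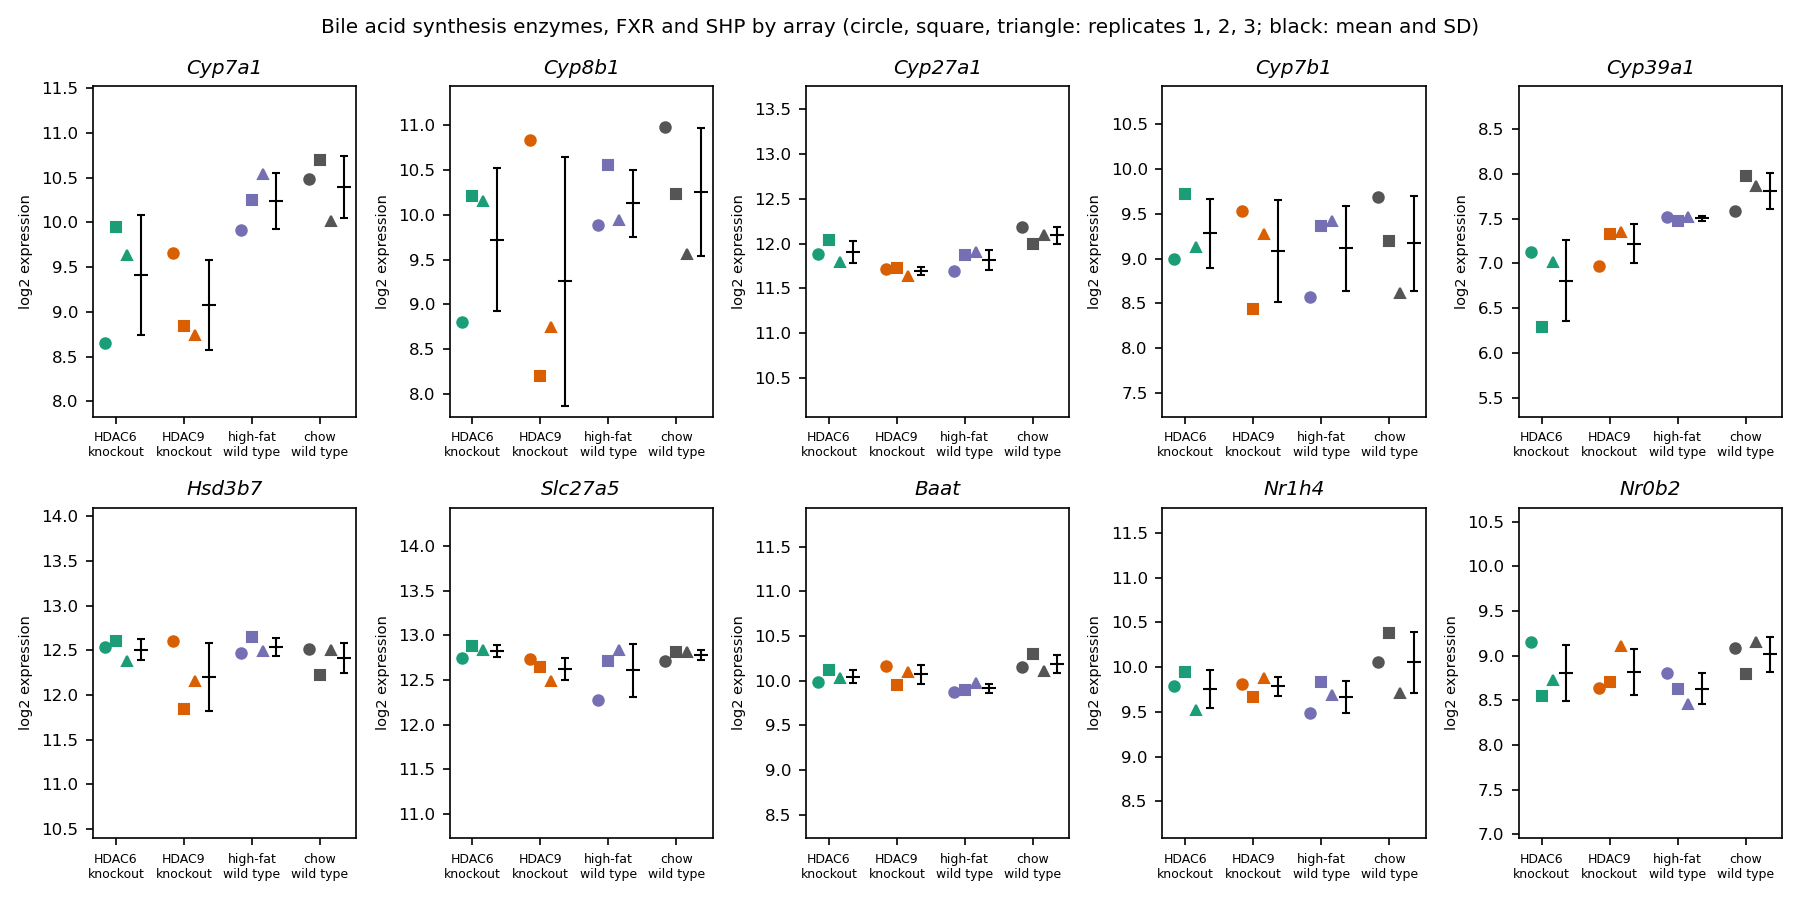
Log2 expression (vertical axis, the same span in every panel) of the 10 genes on each array of HDAC6 knockout, HDAC9 knockout, high-fat wild-type and chow wild-type livers. Circle, square and triangle are replicates 1, 2 and 3, and the black bar is the mean ± SD (n = 3). Cyp7a1 and Cyp39a1 lie below all chow arrays in both knockouts, Cyp8b1 spreads from 8.20 to 10.98, and Baat stays within 9.87 to 10.30.

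Cyp7a1, the cholesterol 7-alpha-hydroxylase that starts and limits the classic pathway, had its lowest means in the knockouts. It measured 8.66, 9.95 and 9.63 in HDAC6 knockout livers, 9.65, 8.84 and 8.74 in HDAC9 knockout livers, 9.92, 10.25 and 10.54 in high-fat livers and 10.48, 10.70 and 10.01 in chow livers. All 6 knockout arrays lay below the lowest chow array, whereas the high-fat arrays overlapped with chow. The group means in the same order were 9.41 ± 0.68, 9.08 ± 0.50, 10.24 ± 0.31 and 10.40 ± 0.35 (SD, n = 3 each). Against chow the log2 difference was -1.32 ± 0.30 SE in HDAC9 knockouts, a 2.49-fold lower level (95% interval -1.97 to -0.67, limma unadjusted p = 0.000632, adjusted p = 0.230). In HDAC6 knockouts it was -0.98 ± 0.30 SE, a 1.98-fold lower level (95% interval -1.63 to -0.34, limma unadjusted p = 0.0057, adjusted p = 0.722). The high-fat difference of -0.16 had a 95% interval of -0.81 to 0.49, which leaves room for changes of either sign (limma adjusted p = 0.910), and it ran from -0.35 to -0.0004 when leaving out single arrays. By unadjusted p, Cyp7a1 stood at rank 33 of 12393 genes in HDAC9 knockouts and rank 95 in HDAC6 knockouts.

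The size of the Cyp7a1 difference depended on the probe set and on single arrays. The second, dimmer probe set measured 5.84, 7.48 and 6.77 in HDAC6 knockouts, 6.57, 5.42 and 6.49 in HDAC9 knockouts and 7.66, 7.12 and 6.93 in chow livers. HDAC6 knockout and chow arrays overlapped on it, while HDAC9 knockout arrays again all lay below chow. Its differences from chow were -0.54 ± 0.37 SE in HDAC6 knockouts and -1.07 ± 0.37 SE in HDAC9 knockouts (limma adjusted p = 0.889 and 0.785). Without HDAC6 knockout replicate 1, the lowest of that group, the brighter probe set's difference was -0.60. Both probe sets correlated over the 12 arrays (Pearson r = 0.829, permutation p = 5.600e-04; Spearman rho = 0.839, permutation p = 0.00121), and r without the 2 arrays farthest from the median was 0.686.

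Cyp8b1, the sterol 12-alpha-hydroxylase that sets the share of cholic acid, was the most variable member. It measured 8.80, 10.21 and 10.15 in HDAC6 knockout livers, 10.83, 8.20 and 8.74 in HDAC9 knockout livers, 9.88, 10.56 and 9.95 in high-fat livers and 10.98, 10.23 and 9.56 in chow livers. The HDAC9 knockout group alone held both the lowest and the second highest array of the series. Over the 12 arrays its SD of 0.867 was larger than that of 99.7% of genes, followed among the members by Cyp7a1 with 0.707 (99.4%). Against chow the difference was -1.0 ± 0.55 SE in HDAC9 knockouts (95% interval -2.18 to 0.18, limma adjusted p = 0.832), and groups overlapped. It moved to -1.79 without HDAC9 knockout replicate 1 and to -0.47 without HDAC9 knockout replicate 2. In HDAC6 knockouts the difference was -0.54 ± 0.55 SE and on the high-fat diet -0.13 ± 0.55 SE (limma adjusted p = 0.931 and 0.964). The HDAC6 value was -0.07 without HDAC6 knockout replicate 1 and -0.89 without chow replicate 3.

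The promoter of Cyp8b1 is shown because this gene varied most, and Nr0b2 below because it codes for the repressor of both Cyp7a1 and Cyp8b1. RefSeq promoters (GRCm38.p6) were at hand for 5 of the 10 members, Cyp8b1, Cyp27a1, Hsd3b7, Nr1h4 and Nr0b2. Only the 250 bases before the transcription start are printed, and these lie at chr9:121916306-121916555, minus strand, for Cyp8b1. Capitals mark the letters TATAAA, which lie 31 to 26 bases before the start.

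Cyp8b1: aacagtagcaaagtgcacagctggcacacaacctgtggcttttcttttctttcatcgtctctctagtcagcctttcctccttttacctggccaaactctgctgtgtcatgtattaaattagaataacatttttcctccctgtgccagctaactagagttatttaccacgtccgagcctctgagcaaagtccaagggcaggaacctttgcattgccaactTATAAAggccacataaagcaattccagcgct

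Of the enzymes outside the classic pathway, Cyp39a1, the oxysterol 7-alpha-hydroxylase that acts on 24-hydroxycholesterol, had the smallest p of all members in HDAC6 knockouts. It measured 7.12, 6.29 and 7.01 in HDAC6 knockout livers, 6.97, 7.33 and 7.36 in HDAC9 knockout livers, 7.52, 7.48 and 7.51 in high-fat livers and 7.59, 7.98 and 7.86 in chow livers. No array of the other groups reached the lowest chow array, although the nearest high-fat array missed it by little. The HDAC6 knockout difference from chow was -1.002 ± 0.19 SE, a 2.00-fold lower level (95% interval -1.40 to -0.60, limma unadjusted p = 8.7e-05, adjusted p = 0.135, rank 8 of 12393 genes). It was -0.74 without HDAC6 knockout replicate 2 (adjusted p = 0.430) and -1.16 without HDAC6 knockout replicate 1 (adjusted p = 0.0661). In HDAC9 knockouts the difference was -0.59 ± 0.19 SE, a 1.51-fold lower level (limma unadjusted p = 0.00656, adjusted p = 0.602). On the high-fat diet it was -0.31 ± 0.19 SE (limma adjusted p = 0.707).

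Cyp27a1, the mitochondrial sterol 27-hydroxylase, showed small differences with little spread. It measured 11.88, 12.04 and 11.80 in HDAC6 knockout livers, 11.71, 11.73 and 11.64 in HDAC9 knockout livers, 11.69, 11.87 and 11.90 in high-fat livers and 12.19, 12.00 and 12.10 in chow livers. The HDAC9 knockout and high-fat arrays all lay below chow, and 1 HDAC6 knockout array lay within the chow range. Its difference from chow was -0.40 ± 0.09 SE in HDAC9 knockouts, a 1.32-fold lower level (95% interval -0.59 to -0.21, limma unadjusted p = 0.000484, adjusted p = 0.227, rank 26). On the high-fat diet it was -0.27 ± 0.09 SE and in HDAC6 knockouts -0.19 ± 0.09 SE (limma adjusted p = 0.341 and 0.865).

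Cyp7b1, the oxysterol 7-alpha-hydroxylase that follows Cyp27a1, varied within every group by more than the group means differed. Its values ran over 8.996 to 9.72 in HDAC6 knockouts, 8.44 to 9.54 in HDAC9 knockouts, 8.57 to 9.42 on the high-fat diet and 8.62 to 9.69 on chow. The differences from chow were 0.11, -0.08 and -0.05, each with an SE of 0.31 (limma adjusted p = 0.982, 0.986 and 0.977). Its second probe set followed the first over the 12 arrays (Pearson r = 0.972, Spearman rho = 0.944, permutation p = 1.000e-05 for each, the smallest that these permutations can give; r = 0.959 without the 2 farthest arrays). The within-group scatter of Cyp7b1 was therefore seen with both probe sets.

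Hsd3b7, the 3-beta-hydroxy-C27-steroid dehydrogenase that both pathways use after 7-alpha-hydroxylation, lay between 12.38 and 12.61 in HDAC6 knockouts, 11.84 and 12.60 in HDAC9 knockouts, 12.47 and 12.65 on the high-fat diet and 12.23 and 12.51 on chow. Groups overlapped in all 3 comparisons with chow, with differences of 0.09, -0.22 and 0.12 (SE 0.15 each, limma adjusted p = 0.964, 0.868 and 0.860). Slc27a5, the bile acid CoA ligase, lay between 12.27 and 12.88 on all arrays. Its differences from chow were 0.04, -0.15 and -0.17 (SE 0.12 each, limma adjusted p = 0.982, 0.875 and 0.738). Neither gene separated any of these groups from chow.

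Baat, which joins the activated bile acid to taurine or glycine, measured 9.87, 9.90 and 9.97 in high-fat livers, against 10.16, 10.30 and 10.11 in chow livers. These groups did not overlap, and the difference was -0.27 ± 0.09 SE (limma unadjusted p = 0.00887, adjusted p = 0.354). On its dimmer second probe set the difference was -0.15 ± 0.11 SE. In HDAC6 and HDAC9 knockouts Baat differed from chow by -0.14 and -0.12 (limma adjusted p = 0.883 and 0.875). It was the steadiest member, with an SD over the 12 arrays of 0.125, larger than that of 27.2% of genes.

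Nr1h4, the gene of the receptor FXR, measured 9.79, 9.95 and 9.53 in HDAC6 knockout livers, 9.82, 9.67 and 9.88 in HDAC9 knockout livers, 9.48, 9.83 and 9.69 in high-fat livers and 10.06, 10.39 and 9.71 in chow livers. Each other group overlapped with chow, whose replicate 2 was the highest array of the series. The differences from chow were -0.30, -0.27 and -0.39 (SE 0.16 each), and the smallest p was that of the high-fat diet (limma unadjusted p = 0.0266, adjusted p = 0.493). Without chow replicate 2 they were -0.13, -0.10 and -0.22. Nr0b2, the gene of SHP, measured 9.16, 8.55 and 8.72 in HDAC6 knockout livers, 8.64, 8.70 and 9.11 in HDAC9 knockout livers, 8.80, 8.63 and 8.46 in high-fat livers and 9.09, 8.80 and 9.16 in chow livers. Here too the groups overlapped with chow. Its differences from chow were -0.20 in each knockout (limma adjusted p = 0.920 for HDAC6 and 0.890 for HDAC9) and -0.39 ± 0.17 SE on the high-fat diet (limma unadjusted p = 0.0354, adjusted p = 0.533). The HDAC6 value was -0.07 without HDAC6 knockout replicate 2, the HDAC9 value -0.11 without HDAC9 knockout replicate 1, and the high-fat value -0.10 with the clock score as a covariate.

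The promoter of Nr0b2 lies at chr4:133553126-133553375, plus strand, and the 250 bases before its start hold an E-box (capitals CACGTG, 195 to 190 bases before the start), the sequence that the clock factors CLOCK and BMAL1 bind, and a TATA box (capitals TATAAA, 28 to 23 bases before the start).

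Nr0b2: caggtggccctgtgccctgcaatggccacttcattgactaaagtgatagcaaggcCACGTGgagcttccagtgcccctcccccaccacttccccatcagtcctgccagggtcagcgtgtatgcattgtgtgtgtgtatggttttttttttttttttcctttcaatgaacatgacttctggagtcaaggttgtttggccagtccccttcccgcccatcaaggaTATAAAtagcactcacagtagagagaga

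Of 5 motifs searched on both strands of these 250 bases in the 5 matched promoters, the E-box CACGTG was present in Nr0b2 and in 6.02% of 32851 RefSeq promoters. AGGTCA, the core of nuclear receptor sites, was present in Nr1h4, on the opposite strand 214 to 209 bases before the start, and in 14% of promoters. The Nr1h4 bases searched (chr10:89506659-89506908, minus strand) lie inside the gene (chr10:89454234-89533645), so that its outermost start was not searched. Those of Cyp27a1 (chr1:74713285-74713534, plus strand) also lie inside their gene, which begins at 74713148. TATAAA was present in Cyp8b1 and Nr0b2 and in 12.4% of promoters. The LRH-1 motif TCAAGGTCA, which contains AGGTCA, and the D-box TTATGTAA were found in none of the 5, against 0.387% and 0.819% of all promoters. A match to these letters is a description of the sequence and not a binding site. Only the exact letters were searched, so that a site with other letters would be missed.

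**Figure D2:**
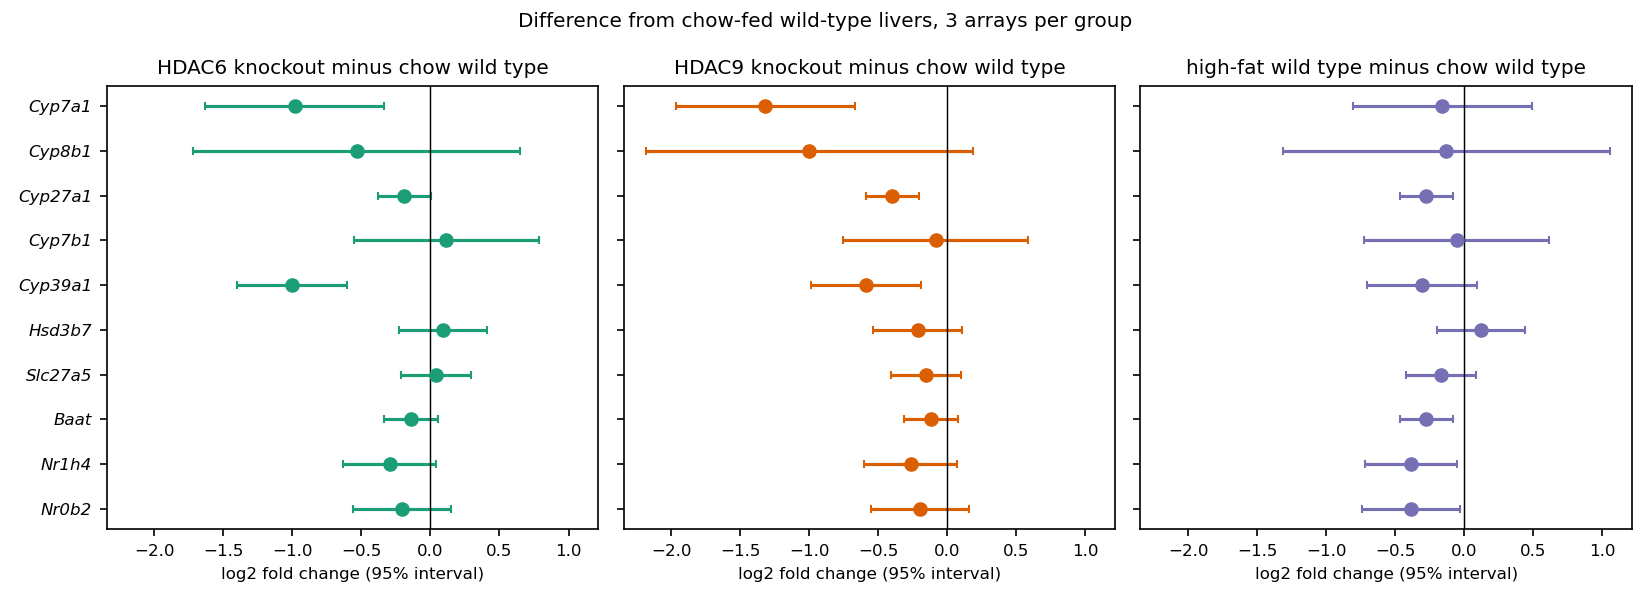
Log2 fold change from chow wild-type livers (horizontal axis) for each gene in HDAC6 knockout, HDAC9 knockout and high-fat wild-type livers, with 95% intervals from limma (points are differences of group means, 3 arrays per group). Intervals of Cyp7a1 and Cyp39a1 lie left of 0 in both knockouts, that of Cyp27a1 in HDAC9 knockouts and on the high-fat diet, and those of Baat, Nr1h4 and Nr0b2 on the high-fat diet. No difference passed the adjusted threshold.

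The 2 knockouts were then compared, and high-fat livers were set against both. Between HDAC9 and HDAC6 knockouts no member was called (0.00807% of all genes were), and limma's unadjusted p was under 0.05 for 2 of 10 members (3.8% of all genes). These were Cyp27a1, with a difference of -0.21 ± 0.09 SE, and Cyp39a1, with 0.41 ± 0.19 SE (limma adjusted p = 0.9998 for each). The Cyp39a1 difference was 0.15 without HDAC6 knockout replicate 2. Cyp7a1 differed by -0.33 between HDAC9 and HDAC6 knockouts (95% interval -0.98 to 0.31). That interval covers 0 and leaves room for a difference of nearly 1 on the log2 scale. All HDAC9 knockout arrays lay below all HDAC6 knockout arrays for Cyp27a1 and for Slc27a5 (2 of 10 members, 4.71% of all genes), Slc27a5 with 12.73, 12.65 and 12.49 in HDAC9 knockouts, against 12.75, 12.88 and 12.83 in HDAC6 knockouts.

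Between high-fat and HDAC9 knockout livers the largest member difference was again that of Cyp7a1. The high-fat arrays all lay above the HDAC9 knockout arrays, by 1.16 ± 0.30 SE, a 2.23-fold higher level (95% interval 0.51 to 1.81, limma unadjusted p = 0.00179, adjusted p = 0.149). Without HDAC9 knockout replicate 1, whose Cyp7a1 value was the highest of its group, the difference was 1.45 and passed the test (limma adjusted p = 0.0438). It was 0.75 on the second probe set (limma adjusted p = 0.739) and 0.72 with a score of clock genes, described below, as a covariate (limma adjusted p = 0.693). The 3 high-fat arrays of Cyp39a1 also lay above HDAC9 knockouts. That made 2 of 10 members that lay wholly above, where 7.67% of all genes did so in that direction alone. No member lay wholly below, and none was called (0.436% of all genes). An unadjusted limma p under 0.05 was found for 2 of 10 members (8.1% of all genes), Cyp7a1 and Hsd3b7, the second with a difference of 0.34 ± 0.15 SE (limma adjusted p = 0.569). Against HDAC6 knockouts the high-fat livers differed in Cyp39a1 by 0.70 ± 0.19 SE (limma unadjusted p = 0.00207, adjusted p = 0.220) and in Cyp7a1 by 0.82 ± 0.30 SE (limma adjusted p = 0.522). Without HDAC6 knockout replicate 2 the Cyp39a1 difference was 0.44, and the Cyp7a1 difference was 0.45 without HDAC6 knockout replicate 1, 0.50 with the clock score and 0.22 on the second probe set. These 2 of 10 members had an unadjusted limma p under 0.05 (7.27% of all genes), and no member was called, against 0.145% of all genes. Groups without overlap were those of Cyp39a1, higher on the high-fat diet, and Baat, lower there by 0.13 (2 of 10, 13.1% of all genes, counting both directions).

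Markers of another tissue, the exocrine pancreas, and of other liver states differed between arrays or groups beside these values. In HDAC9 knockout replicate 2 the 9 measured exocrine pancreas genes had a median of 3.75 above their mean over the arrays, against 0.33 and -0.47 in replicates 1 and 3 and -0.48 to -0.47 in chow livers. Their summed linear level was 583, 4293 and 507 in the HDAC9 knockouts, against 413 to 555 in chow livers. In high-fat livers it was 1511, 1088 and 796, with medians of -0.19, -0.35 and -0.42, so that these too lay above chow. HDAC9 knockout replicate 2 also held the lowest Cyp8b1, Cyp7b1 and Hsd3b7 values of the series. Without it, the HDAC9 knockout differences from chow were -1.20 for Cyp7a1, -0.42 for Cyp27a1 and -0.65 for Cyp39a1. The difference was then -0.47 for Cyp8b1 and -0.04 for Hsd3b7, and that of Cyp7b1 changed sign to 0.24, so that not all 10 members lay below chow. The 12 acute phase genes all averaged higher in HDAC9 knockouts than in chow livers (median 0.31, with Orm2 called at 1.55, limma adjusted p = 0.0454), and the 11 pericentral genes all averaged lower (median -0.22, none called). The median level of the pericentral genes on each array was 0.14, -0.33 and -0.52 in HDAC9 knockouts, against -0.007 to 0.17 in chow livers, so that replicate 1 lay within the chow range. Cyp7a1 itself is known to be expressed mostly around the central vein. In HDAC6 knockouts 10 of 11 pericentral genes averaged lower (median -0.15, none called). The part of the exocrine pancreas, acute phase and pericentral genes in the members' values was not tested.

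Male-biased liver genes averaged lower than chow in all 3 groups, for 8 of 8 measured genes in HDAC6 knockouts (median -0.70), 7 of 8 in HDAC9 knockouts (median -0.62) and 8 of 8 on the high-fat diet (median -0.44). In HDAC9 knockouts 3 of them passed the test (Ugt2b1, Slco1a1 and Hsd3b5). The array with the highest median of this list was chow replicate 1 (0.97, against 0.33 and 0.39 in the other chow arrays). On the high-fat diet the 6 high-phase clock genes all averaged higher than chow and the 5 low-phase genes all lower, with none called. A clock score, the level of high-phase minus that of low-phase genes, was 1.76, 1.63 and 2.79 in high-fat livers, against -0.68, 1.44 and -0.07 in chow livers. It was -0.72, -0.04 and 1.60 in HDAC6 and -0.52, 0.83 and -1.23 in HDAC9 knockouts. Cyp7a1 is known to follow the clock. With this score as a covariate its high-fat difference from chow was -0.49 ± 0.37 SE rather than -0.16 (limma adjusted p = 0.757). That of Nr0b2 was -0.10 ± 0.18 SE rather than -0.39 (limma adjusted p = 0.910). That of Hsd3b7 was 0.36 ± 0.16 SE rather than 0.12 (limma adjusted p = 0.590). The HDAC9 knockout difference of Cyp7a1 was then -1.22 and the HDAC6 knockout difference -0.99. All 3 high-fat arrays scored above every other array, so that clock and diet cannot be told apart by this covariate. The part of the clock and of the male-biased genes in the members' values was not tested. The labels used here give no time of tissue collection.

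The other genes of the pathway had no shared direction. Of the 13 other bile acid synthesis enzymes, all measured, none was called in any comparison with chow, and 7, 6 and 6 averaged higher in HDAC6 knockouts, HDAC9 knockouts and high-fat livers. Their median differences were 0.01, -0.004 and -0.07. Akr1c14, a 3-alpha-hydroxysteroid dehydrogenase, had the smallest p of them. It measured 10.79, 10.69 and 10.64 in HDAC9 knockouts and 10.70, 10.81 and 10.85 on the high-fat diet, against 10.91, 11.34 and 11.12 in chow livers. Neither group overlapped with chow, and the differences were -0.42 ± 0.11 SE and -0.33 ± 0.11 SE (limma adjusted p = 0.349 and 0.321). Cyp2c70, which makes the muricholic acids of mice, differed by -0.19, -0.20 and -0.24 in the 3 groups (limma adjusted p = 0.883, 0.840 and 0.610).

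Of 16 regulators of bile acid synthesis, 12 were measured and none was called. In each of the 3 groups 9 averaged higher and 3 lower than chow. Their median differences were 0.09, 0.08 and 0.16, against -0.01 over all genes in each comparison. The regulators named next are only part of the 12 and do not stand for the list. Hnf4a, a nuclear receptor that activates Cyp7a1 and Cyp8b1, differed from chow by -0.20, -0.20 and -0.16 (SE 0.09 each, limma adjusted p = 0.865, 0.821 and 0.685). Mafg, a repressor that FXR induces, differed by 0.20, 0.19 and 0.23. Prox1, a corepressor of Cyp7a1, differed by 0.38, 0.35 and 0.39 at mean levels of 4.42 to 4.82, near the 25th percentile of gene means. Fgfr4, the liver receptor of FGF15, averaged 7.80 ± 0.13 in HDAC9 knockouts and 8.03 ± 0.04 in chow livers (SD, n = 3 each), without overlap (limma adjusted p = 0.840). Fgf15 itself lay between 3.78 and 4.20 on all arrays.

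Other FXR targets likewise had no called gene among 8 measured of 9, and 7, 4 and 5 of them averaged higher than chow in HDAC6 knockouts, HDAC9 knockouts and high-fat livers. Their median differences were 0.08, 0.01 and 0.005. Apoc2, an activator of lipoprotein lipase, differed most on the high-fat diet. It measured 11.62, 11.23 and 11.09 in high-fat livers, against 10.87, 10.54 and 11.01 in chow livers, without overlap (0.51 ± 0.16 SE, limma adjusted p = 0.319). Abcb11, the export pump for bile salts, differed by -0.01, -0.12 and -0.22, and Pltp, a phospholipid transfer protein, by 0.49, -0.05 and -0.12.

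Relations between members were examined over the 12 arrays, in 45 pairs. None passed Benjamini-Hochberg adjustment over the 45, and 6 had an unadjusted permutation p under 0.05 for Pearson's r. Since group differences enter such an r, each was also computed after each group's mean was subtracted, with an exact permutation within groups over 1296 arrangements. By that test 11 pairs had an unadjusted p under 0.05 and none passed adjustment.

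The enzymes of the classic pathway had the second highest r of all pairs. Cyp7a1 and Cyp8b1 had a Pearson r of 0.780 (permutation p = 0.00337, adjusted 0.0758) and a Spearman rho of 0.615 (permutation p = 0.0372, adjusted 0.239). Without the 2 arrays farthest from the median, r was 0.645. After group means were subtracted it was 0.792 (exact permutation p = 0.0270, adjusted 0.167). Of 12392 other genes, 45 had an r with Cyp7a1 at least that high, Cyp8b1 among them (0.363%). The HDAC6 and HDAC9 knockout arrays spread widest along this relation. With the second Cyp7a1 probe set, r with Cyp8b1 was 0.785 (permutation p = 0.00255) and rho 0.727 (permutation p = 0.00920). On that probe set r fell to 0.463 without the 2 farthest arrays, and within groups it was 0.722 (exact permutation p = 0.0471, not adjusted).

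Cyp7a1 and Nr0b2 had a low r over all arrays and a strongly negative one after group means were subtracted. Over the 12 arrays r was -0.361 (permutation p = 0.246, adjusted 0.509) and rho -0.329 (permutation p = 0.297, adjusted 0.479), and r without the 2 farthest arrays was 0.109. Within groups r was -0.888 (exact permutation p = 0.00386, adjusted 0.139). In each of the 4 groups the array with more Cyp7a1 had less Nr0b2, in full reverse order. Of 12392 other genes, 3 had an r with Cyp7a1 at least that low, Nr0b2 among them (0.0242%). With the second Cyp7a1 probe set the within-group r was -0.460 (exact permutation p = 0.290), and the order was reversed in 2 of the 4 groups. Leaving out 1 array at a time gave -0.974 to -0.809 for the brighter probe set, and the mean of all probe sets gave -0.694 (exact permutation p = 0.0787). Slc27a5 also had a negative within-group r with Nr0b2, -0.656 (exact permutation p = 0.00617, adjusted 0.139), in reverse order in 3 groups. The order of Baat and Nr0b2 was likewise reversed in 3 groups (r = -0.531, exact permutation p = 0.146).

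**Figure D3:**
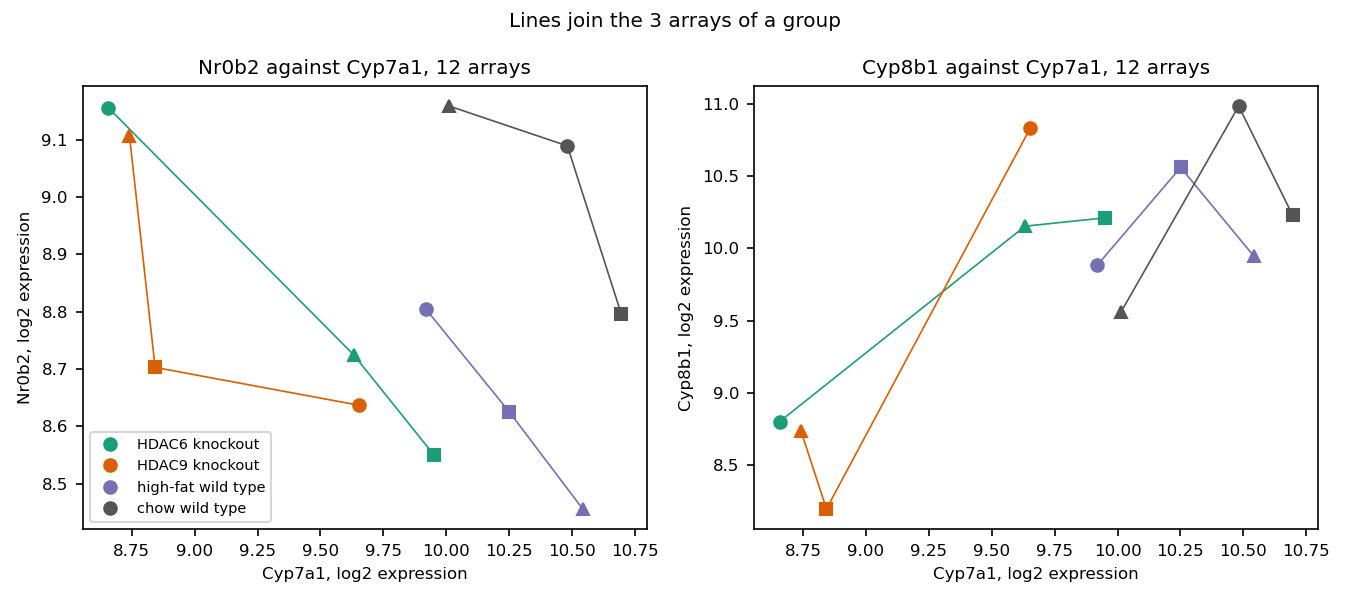
Log2 expression of Nr0b2 (left) and Cyp8b1 (right) against that of Cyp7a1 on the 12 arrays, coloured by group, with lines joining the 3 arrays of a group in order of Cyp7a1. The lines of Nr0b2 descend in all 4 groups while the groups are offset from each other, and Cyp8b1 is lowest on the 3 arrays with Cyp7a1 under 9.

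Baat and Nr1h4 had the highest r of all pairs, 0.789 (permutation p = 0.00187, adjusted 0.0758), with rho 0.706 (permutation p = 0.0130, adjusted 0.239). It was 0.487 without the 2 farthest arrays and 0.694 after group means were subtracted (exact permutation p = 0.0363, adjusted 0.167). Cyp39a1 differed from the other P450 enzymes. Its within-group r with Cyp7a1, Cyp8b1, Cyp27a1 and Cyp7b1 was between -0.68 and -0.61 (exact permutation p = 0.0401 to 0.147, adjusted 0.167 to 0.313), although its means in the knockouts lay below chow as did those of Cyp7a1.

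**Figure D4:**
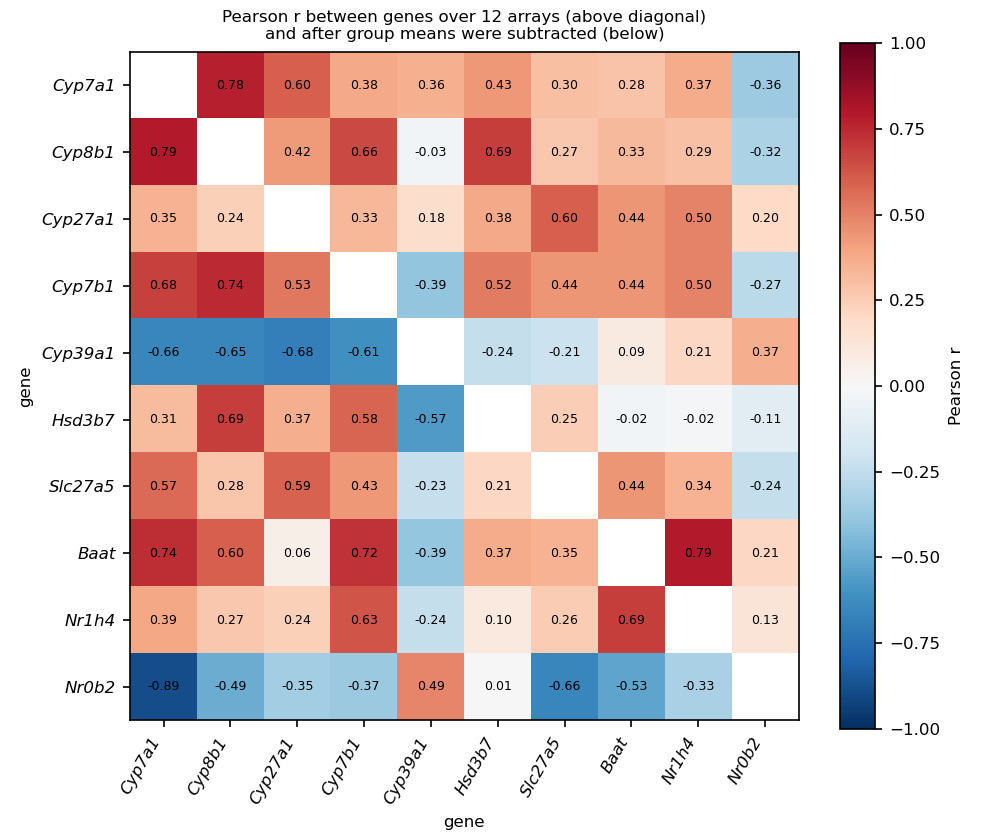
Pearson r between the members over the 12 arrays (above the diagonal) and after subtraction of each group's mean (below the diagonal), coloured from -1 to 1. Cyp7a1, Cyp8b1 and Cyp7b1 are positively related below the diagonal (0.68 to 0.79), Cyp39a1 has negative r with them, and Nr0b2 has its lowest r with Cyp7a1 (-0.89).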

How the data were processed

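Expression was measured on 12 arrays in 4 groups of 3. The authors deposited log2 values for each probe set, made with RMA per the submitters' processing notes. The software and chip definition are not given in the sources used here. Nothing was normalized again.

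A platform annotation gave 20380 probe sets 1 symbol, 691 several and 1555 none. The probe set with the highest mean stood for a gene (12393 genes). The comparisons used limma 3.58.1 in R 4.3.3 (4 group means, eBayes with trend, 14.3 degrees of freedom, two-sided), with Benjamini-Hochberg adjustment over all genes and a threshold of 0.05. An exact permutation of 3 against 3 arrays cannot give a p under 0.1. Correlations used 100000 permutations (Python 3.11.15, scipy 1.17.1). In a simulated HDAC6 knockout and chow comparison over 12393 genes, 200 were changed. There, 98 of 100 2-fold and 59 of 100 1.5-fold changes were recovered, with 7 false calls. The real comparison called 2 genes, so that passing its adjusted threshold took a smaller unadjusted p. SEs of members ran from 0.09 (Cyp27a1) to 0.55 (Cyp8b1), against a median of 0.12. Cyp39a1 and Cyp7a1, about 2-fold lower, did not pass (limma adjusted p = 0.135 and 0.722). These rates therefore do not give the power for the members. The number of arrays limits precision.

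The members and the 16 lists (154 genes, 127 measured) were chosen with earlier results of these data known. Named were all members, Hdac6, Hdac9 and, from each pathway list, genes past the threshold or among the 4 of smallest p per comparison with chow, plus the 2 genes most correlated with each member. Genes named outside that rule (Fgf15, Alb and values repeated across groups) were chosen after their values were seen.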

Additional observations from a re-analysis of the deposited data

How the results depend on the processing

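Of 1092 values of the 60 member differences under alternatives, 1055 kept their direction and their side of the threshold, 36 changed sign, none of them past the threshold, and 1 (Cyp7a1, high-fat against HDAC9 knockout livers without HDAC9 knockout replicate 1) passed it. The number of members called was 0 under every alternative except that one, so that leaving out arrays gave 0 to 1 for that comparison. Sign changes occurred in 18 member differences, 5 of them against chow, with 30 values from leaving out an array and 6 from other alternatives. Leaving out arrays gave, for Cyp7b1, -0.16 to 0.37 between HDAC6 knockout and chow, -0.36 to 0.24 between HDAC9 knockout and chow, -0.33 to 0.22 between high-fat and chow, -0.42 to 0.13 between HDAC9 and HDAC6 knockouts, -0.32 to 0.11 between high-fat and HDAC6 knockouts and -0.29 to 0.31 between high-fat and HDAC9 knockouts. For Cyp8b1 it gave -0.48 to 0.23 between high-fat and chow, -1.25 to 0.065 between HDAC9 and HDAC6 knockouts and -0.054 to 0.65 between high-fat and HDAC6 knockouts. For Hsd3b7 it gave -0.0026 to 0.16 between HDAC6 knockout and chow and -0.031 to 0.085 between high-fat and HDAC6 knockouts. Between HDAC9 and HDAC6 knockouts it gave -0.024 to 0.085 for Baat, -0.084 to 0.13 for Nr1h4 and -0.14 to 0.18 for Nr0b2. It gave -0.20 to 0.0076 for Nr1h4 between high-fat and HDAC6 knockouts and -0.13 to 0.15 for Slc27a5 between high-fat and HDAC9 knockouts. With the clock score, Cyp7b1 was 0.18 between high-fat and chow and 0.059 between high-fat and HDAC6 knockouts, and Nr0b2 was -0.087 between HDAC9 and HDAC6 knockouts, 0.10 between high-fat and HDAC6 knockouts and 0.18 between high-fat and HDAC9 knockouts. With quantile normalization, Slc27a5 was 0.0067 between high-fat and HDAC9 knockouts. Counts of genes called over the whole table were less stable. For HDAC6 knockout against chow, 2 genes were called, 1 with only the 2 groups, quantile normalization, median centring, a filter at the 50th percentile, the clock score or every probe set on its own, and 1 to 4 when leaving out arrays. For HDAC9 knockout against chow, 12 were called, 3 without the trend, 6 with robust eBayes, 0 with only the 2 groups, 5 with quantile normalization, 5 and 0 with filters at the 25th and 50th percentile, 7 with the mean of probe sets, 1 with every probe set on its own and 0 to 13 when leaving out arrays. For high-fat against chow, 36 were called, 22 with the mean of probe sets, 6 with the clock score and 13 to 33 when leaving out arrays. For HDAC9 against HDAC6 knockouts, 1 was called, 2 with only the 2 groups, 2 with the mean of probe sets and 1 to 4 when leaving out arrays. For high-fat against HDAC6 knockouts, 18 were called, 36 with robust eBayes, 56 with only the 2 groups, 31 with shared-probe suffixes removed and 8 to 24 when leaving out arrays. For high-fat against HDAC9 knockouts, 54 were called, 34 with a filter at the 50th percentile, 29 with the mean of probe sets, 19 with the clock score and 9 to 97 when leaving out arrays. The cause of these changes was not tested. No pairing by replicate number was seen: deviations of same-numbered arrays correlated between -0.152 and 0.148, and those of different-numbered arrays between -0.238 and 0.241. These correlations run over all genes, so that a batch shared by part of the genes could be missed. With the number as a replicate block, 3, 17, 33, 2, 26 and 68 genes were called in the order of comparisons above, and 0 members in each. The alternatives for relations between members and the TATAAA search were chosen after seeing the data. Of the 45 pairs, 0 passed adjustment, and 0 to 2 when leaving out arrays: Cyp7a1 with Cyp8b1 (r = 0.859, permutation p = 0.00162, adjusted 0.0439) and Baat with Nr1h4 (r = 0.821, permutation p = 0.00195, adjusted 0.0439) without HDAC9 knockout replicate 1, and Baat with Nr1h4 (r = 0.866, permutation p = 8.500e-04, adjusted 0.0383) without high-fat replicate 2. No detection calls were used here, so that signal over background is unknown.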

Other observations

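The genes whose levels followed each member most closely over the 12 arrays were taken from 2465 genes with a mean over the 25th percentile and an SD of at least 0.2, and their r is a description, since the highest of so many would be high without any relation. Cyp7a1 was followed by Pglyrp2 (0.835), a peptidoglycan amidase of the liver, and Akr1c18 (0.832), a hydroxysteroid dehydrogenase. Cyp8b1 and Hsd3b7 shared Npr2, a natriuretic peptide receptor, as their nearest gene (0.799 and 0.915). Cyp27a1 was followed by Ugt2b1 (0.892), one of the male-biased genes called lower in HDAC9 knockouts, and Slc46a3 (0.836). Slc27a5 had the highest value of all, 0.957 with Cyp2d22, a cytochrome P450. Nr1h4 was followed by Adgra3 (0.912) and Sec63 (0.899), Baat by Fam234b (0.892) and Ces1d (0.879), and Nr0b2 by Abhd6 (0.796) and Acot1 (0.782), an acyl-CoA thioesterase. Cyp7b1 was followed by Sec14l4 (0.793) and Bmp6 (0.780), and Cyp39a1 by Zfp768 (0.792) and Rtkn (0.783).

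Other cell type lists gave these counts against chow, in the order HDAC6 knockout, HDAC9 knockout and high-fat livers. Kupffer cell genes averaged higher for 7, 8 and 8 of 8, with median differences of 0.22, 0.31 and 0.36 and none called. Cholangiocyte genes averaged higher for 4, 6 and 1 of 6, with median differences of 0.10, 0.09 and -0.16. Of the ileal enterocyte list, Fabp2, an intestinal fatty acid binding protein that liver also expresses, was called on the high-fat diet, at 11.28 ± 0.44 in high-fat livers and 10.29 ± 0.08 in chow livers (SD, n = 3 each, limma adjusted p = 0.0360). Female-biased liver genes averaged higher for 6, 5 and 5 of 7 (medians 0.30, 0.25 and 0.31, none called), and periportal genes for 5, 4 and 3 of 7. The part of these markers in the members' values was not tested.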
